A study of Mus musculus with 27 samples.

Results

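The 10 genes described here make, degrade, bind or respond to retinoic acid in the mouse embryo. They were chosen by name as members of the retinoic acid pathway: Rdh10 and Aldh1a2 for synthesis, Cyp26a1, Cyp26b1 and Cyp26c1 for degradation, Crabp1 and Crabp2 for intracellular binding, and Rara, Rarb and Rarg as nuclear receptors. All 10 were found among the 24065 genes of the RNA-Seq count table, and all 10 passed the filter on low counts (a mean of 10 or more over the embryos) that left 15114 genes for the tests. RNA-Seq was performed on whole C57BL/6J embryos at E8.5, in 3 wild type (WT) and 3 Dnmt3b-/- littermates, with a separate library for each embryo. DNMT3B is a de novo DNA methyltransferase, and the study asked which genes change expression when embryos develop without its activity. The Dnmt3b-/- embryos came from heterozygous parents of natural matings and carried in every tissue an allele that lacks catalytic activity, made by crossing floxed mice to an ACTB-Cre deleter. Total RNA was depleted of ribosomal RNA before stranded libraries were made, and the libraries held 41489332 to 58470286 reads counted in genes.

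Retinoic acid is made from retinol in 2 oxidation steps, the first carried by RDH10 and the second by ALDH1A2, the main retinaldehyde dehydrogenase of the early trunk mesoderm. Enzymes of the CYP26 family oxidize it further and clear it from the head, the hindbrain and the tailbud, so that at this stage the trunk is exposed and both ends are protected. The RAR receptors bind target genes as partners of RXR proteins, at direct repeats of a short hexamer, and some of their targets, such as Cyp26a1 and Rarb, feed back on the pathway.

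The receptor motif that links the pathway's genes to its own signal is shown for the members that held it near their start. Promoter windows from 250 bases before to 50 bases after the annotated start (RefSeq, GRCm38.p6) were available for 8 of the 10 members, as 12 windows. They were searched on both strands for 2 hexamers, each of them either AGGTCA, its variant AGTTCA, the variant GGGTCA or the variant GGTTCA, in direct repeat with 1, 2 or 5 bases between them. The 5-base spacing occurred in 32 of 32851 windows of all genes (0.0974%), and in 31 of 27025 genes (0.115%). Among the 8 members with a window it occurred in 2, with no 1-base or 2-base match in any window of the members. The sites are printed 5′ to 3′ on the strand of the gene with 6 flanking bases on each side, with the repeat and its spacer in capitals. The Rarb repeat lies 53 to 37 bases before the start of its window, and with its flanks spans chr14:16575507-16575535 on the minus strand. The Cyp26a1 repeat lies 32 to 16 bases before the start of its window, spans chr19:37697770-37697798 with its flanks on the plus strand, and reads in the opposite direction. For both genes this start lies inside the annotated span given below, which begins further upstream.
Rarb: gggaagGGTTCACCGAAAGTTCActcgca
Cyp26a1: taaagaTGAACTTTGGGTGAACTaatttg
A match is a stretch of letters and not a measured binding site. The expression values of both genes are given below with those of the other members.

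Dnmt3b itself was the check of the labels. Its normalized count, that is the read count scaled by TMM to a common library size, was 7209, 13852 and 6233 in WT embryos 1 to 3 and 4032, 4507 and 4704 in Dnmt3b-/- embryos 1 to 3. The groups did not overlap, and Dnmt3b fell in Dnmt3b-/- embryos with a log2 fold change of -1.04 ± 0.27 (SE, adjusted p = 0.0169, edgeR). The count covers all exons of the gene, the deleted and the remaining ones, so that both genotypes give reads. Without WT embryo 2 the log2 fold change was -0.61, and with a correction for GC content and exon length, described below, it was -0.92 (adjusted p = 0.0417).

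WT embryo 2 stood apart from the other libraries in its tissue markers. Its yolk sac endoderm markers (9 genes) summed to 1156 FPKM, against 179 to 387 in the other WT embryos and 112 to 416 in the Dnmt3b-/- embryos. Its primitive erythroid markers (7 genes) summed to 399 FPKM, against 1521 and 2251 in the other WT embryos and 504 to 1443 in the Dnmt3b-/- embryos. Its tailbud markers (8 genes) summed to 152 FPKM, against 90.5 and 100 in WT embryos 3 and 1, but Dnmt3b-/- embryo 3 was close to it at 150 FPKM. The summed hindbrain markers lay between 46.2 and 57.8 FPKM and the somite markers between 46.9 and 73.9 FPKM over all embryos. The 7 trophoblast and decidua markers summed to at most 0.167 FPKM in any library, and none had enough counts to be tested. In whole embryos, fewer cells of a type and less RNA per cell cannot be told apart. Where a member depended on WT embryo 2 the value without it is given, and the part of these tissue markers in them was not tested.

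Of the 10 genes, Cyp26c1 and Rarg were downregulated in Dnmt3b-/- embryos. Both had an adjusted p under 0.05, the other 8 genes were not past this threshold, and none of the 10 passed it with a change of more than 2-fold. Over all tested genes, 35.7% were past the threshold in either direction, 18.1% lower and 17.6% higher, and 5.9% were also past 2-fold. The 2 of 10 members that passed are therefore a smaller share than the background, and the 2 of 10 that passed as lower are close to it. The WT and Dnmt3b-/- embryos did not overlap in these same 2 genes, both lower, while over all tested genes 26.5% did not overlap with lower and 25.3% with higher values in Dnmt3b-/- embryos. The median log2 fold change of the members was -0.09, beside -0.03 over all tested genes, with 4 members above and 6 below 0.

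**Figure D1:**
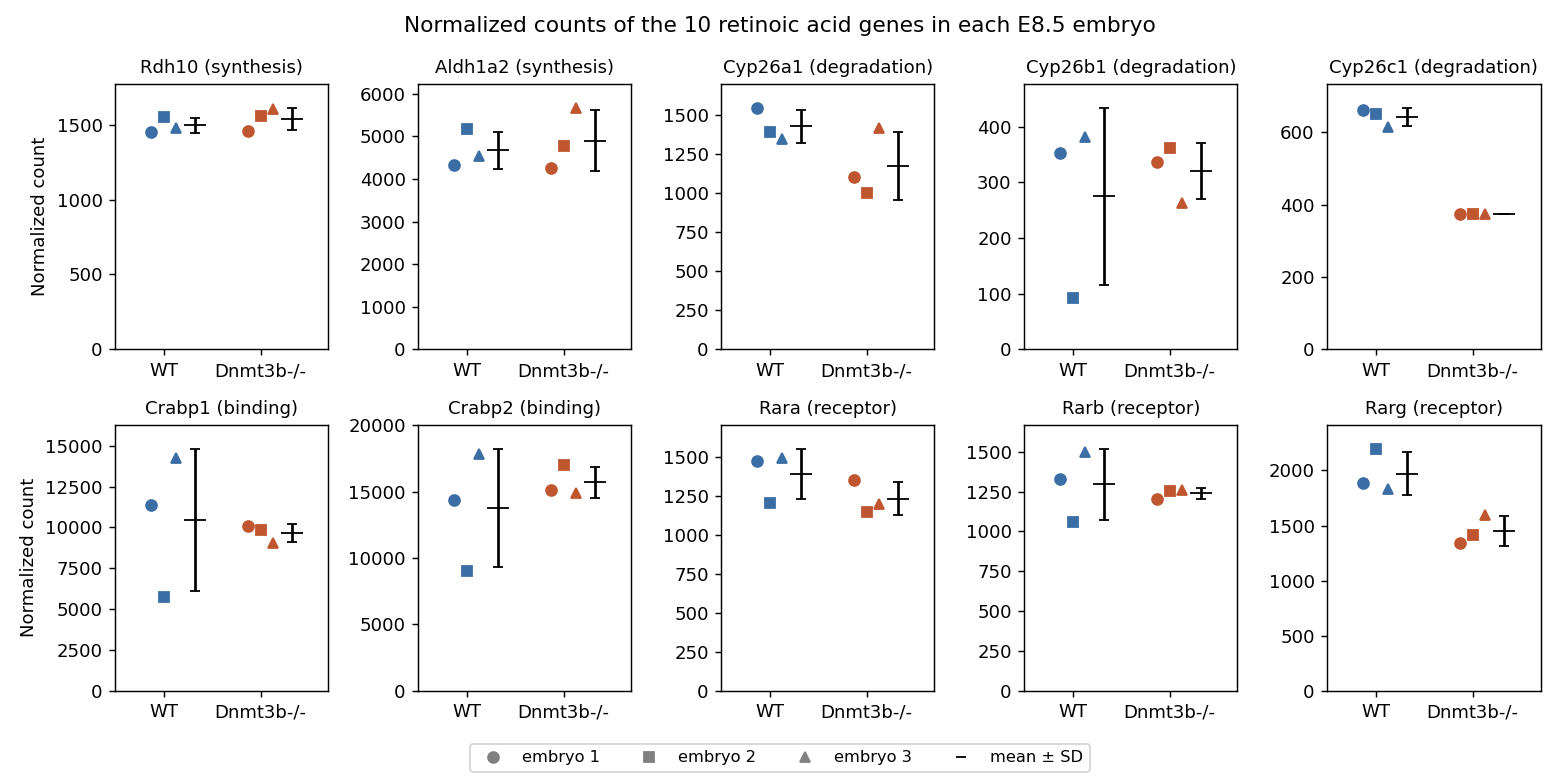
Normalized counts (vertical axes, each from 0) of the 10 genes in each embryo, with WT in blue and Dnmt3b-/- in orange. Circles, squares and triangles are embryos 1, 2 and 3, and black bars are the mean and SD of 3 embryos. Cyp26c1 and Rarg are the genes whose genotypes do not overlap, and WT embryo 2 is the low square for Cyp26b1, Crabp1 and Crabp2.

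The members also differed in their exonic GC content, and over all genes the fold change between the genotypes followed GC content. Among the tested genes with 42 to 44% GC the median log2 fold change was 0.27 (1137 genes), and among those with 58 to 60% GC it was -0.56 (914 genes). The members had a median GC content of 54.2%, against 50.3% for tested genes, and 8 of the 10 were above that value. Each member is therefore described also from a fit that removed differences between libraries in the trend of counts with GC content and exon length. In that fit 0 of the 10 members passed as lower, where 15.6% of 15047 genes did, and 1 member passed as higher, where 11.0% did. Without the correction the split over all genes at more than 2-fold was 320 higher and 571 lower, and with it 265 higher and 184 lower. The cause of the trend with GC content was not tested.

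**Figure D2:**
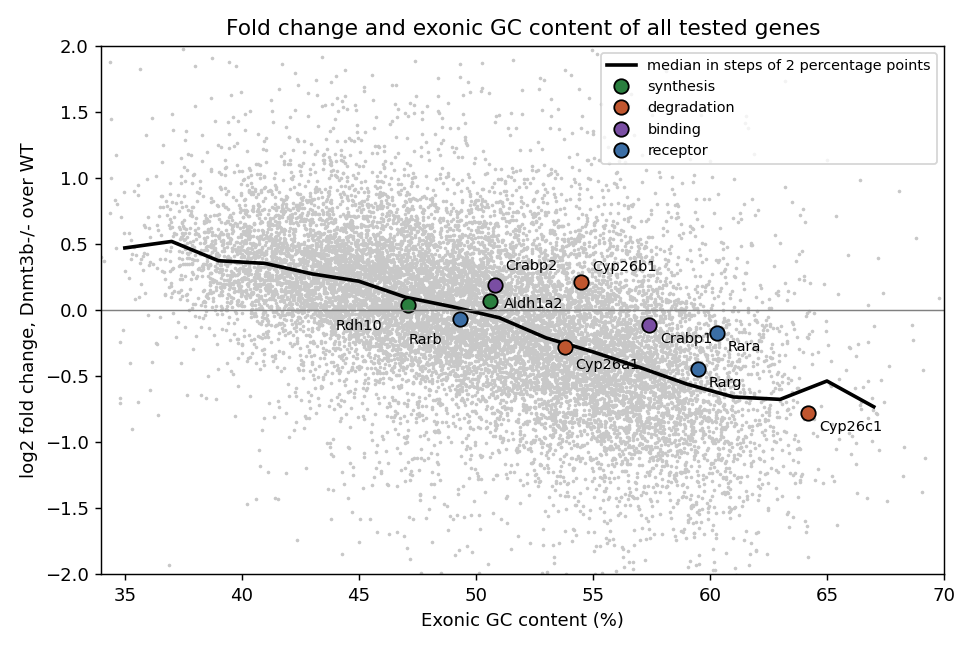
Log2 fold change of Dnmt3b-/- over WT (vertical axis) against exonic GC content in percent (horizontal axis) for the 15047 tested genes with a GC value (grey), of which 195 lie outside the axes. The black line is the median in steps of 2 percentage points, and the coloured points are the members by role. The line falls from above 0 for genes of low GC content to below 0 for genes of high GC content, and Cyp26c1, Rara and Rarg are the members of highest GC content.

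Neither synthesis gene was past the threshold. Rdh10 (chr1:16105882-16132550, plus strand), the retinol dehydrogenase of the first step, had normalized counts of 1452, 1553 and 1480 in WT and 1457, 1558 and 1601 in Dnmt3b-/- embryos. These values overlapped, with a log2 fold change of 0.04 ± 0.09 (SE, n = 3 per genotype, edgeR adjusted p = 0.747) and a 95% interval of -0.16 to 0.25. After the GC and length correction its log2 fold change was -0.17 (edgeR adjusted p = 0.152), so that the sign was not fixed. The corrected counts were 1607, 1634 and 1626 in WT and 1402, 1450 and 1481 in Dnmt3b-/- embryos, which did not overlap. Aldh1a2 (chr9:71215789-71296243, plus strand), which makes retinoic acid from retinaldehyde, had normalized counts of 4335, 5164 and 4535 in WT and 4257, 4771 and 5673 in Dnmt3b-/- embryos. Dnmt3b-/- embryo 3 was the highest and Dnmt3b-/- embryo 1 the lowest of all 6. Between the genotypes the log2 fold change was 0.07 ± 0.11 (SE, edgeR adjusted p = 0.684), the 95% interval ran from -0.20 to 0.33, and the corrected value was 0.02. The intervals of both genes lie well inside a 2-fold change in either direction.

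The degradation genes were less uniform. Cyp26c1 and Cyp26a1 are neighbours on chromosome 19, both on the plus strand, at chr19:37685112-37693320 and chr19:37697738-37701536 with 4417 bases between them, while Cyp26b1 lies alone at chr6:84571414-84593908 on the minus strand. All 3 encode cytochrome P450 enzymes that oxidize retinoic acid.

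Cyp26c1, which is expressed in the head mesenchyme and hindbrain of early embryos, showed the largest fold change among the members with a call. Its normalized counts were 662, 652 and 615 in WT and 374, 375 and 375 in Dnmt3b-/- embryos. Every Dnmt3b-/- embryo was below every WT embryo, and the 3 Dnmt3b-/- values were almost equal. The mean was 643 ± 25.1 in WT and 375 ± 0.77 in Dnmt3b-/- embryos (SD, n = 3 each), a decrease of 41.8% in the fit. The raw counts in Dnmt3b-/- embryos were 377, 325 and 334. Counting error alone at such counts exceeds an SD of 0.77, so this SD understates the spread to be expected between embryos. The log2 fold change was -0.78 ± 0.12 (SE, edgeR adjusted p = 0.002) with a 95% interval of -1.05 to -0.51, and it stayed between -0.81 and -0.76 and past the threshold with each embryo left out in turn. Cyp26c1 had the highest GC content of the members, 64.2%. The 54 tested genes with 64 to 66% GC had a median log2 fold change of -0.54, and after the GC and length correction Cyp26c1 was at -0.11 ± 0.12 (SE, edgeR adjusted p = 0.513). The corrected counts were 503, 550 and 494 in WT and 450, 486 and 494 in Dnmt3b-/- embryos. An lncRNA on the opposite strand, Gm32342 (chr19:37677387-37697546), spans the whole of Cyp26c1. The strand setting of the counting is not given in the sources used here, so reads of the antisense RNA cannot be told apart from those of Cyp26c1.

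The genes whose pattern over the 6 embryos was most like that of Cyp26c1 were Kdm4a, which encodes a histone demethylase, Sfxn3 and Pex6, a peroxisome assembly gene. Their Pearson correlations with Cyp26c1 on log2 normalized counts were 0.999, 0.998 and 0.997 over 6 embryos, of which 3 share each genotype. Their own log2 fold changes were -0.62, -3.16 and -1.06. Sfxn3 had a mean of only 49.4 normalized counts in WT and 5.45 in Dnmt3b-/- embryos, so that its fold change rests on few reads. These correlations and fold changes are without the GC and length correction.

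Cyp26a1, the main CYP26 enzyme of the tailbud, had normalized counts of 1547, 1391 and 1348 in WT and 1106, 999 and 1418 in Dnmt3b-/- embryos. Dnmt3b-/- embryos 1 and 2 were below every WT embryo, and Dnmt3b-/- embryo 3 was among the WT values. The log2 fold change was -0.28 ± 0.14 (SE, edgeR adjusted p = 0.156) with a 95% interval of -0.61 to 0.04, and -0.13 after the GC and length correction. Without Dnmt3b-/- embryo 3 it was -0.43 with an adjusted p of 0.0399 (edgeR), so that 1 library decided this call. That embryo also had the highest summed tailbud markers of its genotype. WT embryo 2 had the highest sum of the WT embryos, and its Cyp26a1 count lay between those of the other WT embryos. The part of tailbud content in these values was not tested.

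Cyp26b1, which acts in the hindbrain and later in the limb and gonad, was the member most dependent on 1 library. Its normalized counts were 352, 92.0 and 381 in WT and 336, 361 and 264 in Dnmt3b-/- embryos. WT embryo 2 held 25.1% of the mean of the other WT embryos, and the 5 other embryos lay between 264 and 381. The log2 fold change was 0.21 ± 0.44 (SE, edgeR adjusted p = 0.737) with a 95% interval of -0.80 to 1.23, it was -0.19 without WT embryo 2, and 0.45 with the GC and length correction over all embryos. A 2-fold rise would lie inside that interval.

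Taken per exon length, the 3 CYP26 genes together amounted to 28.7, 25.6 and 25.8 FPKM in WT and 19.5, 18.4 and 22.9 FPKM in Dnmt3b-/- embryos. Cyp26a1 made up 61.5 to 64.1% of this sum in WT and 64.0 to 73.0% in Dnmt3b-/- embryos, and Cyp26c1 31.1 to 34.4% and 22.0 to 27.5%. The sum and the shares are on the uncorrected scale. With the GC and length correction no CYP26 gene was past the threshold, with log2 fold changes of -0.13 (Cyp26a1), 0.45 (Cyp26b1) and -0.11 (Cyp26c1). The ratio of Aldh1a2 to the CYP26 sum was 1.401, 1.87 and 1.63 in WT and 2.02, 2.41 and 2.30 in Dnmt3b-/- embryos. This ratio was highest in the Dnmt3b-/- embryos on the uncorrected scale, but the genotypes overlapped after the GC and length correction, at 1.61, 2.06 and 1.87 in WT and 1.86, 2.10 and 2.003 in Dnmt3b-/- embryos. These sums and ratios were chosen after the values were seen and are a description.

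**Figure D3:**
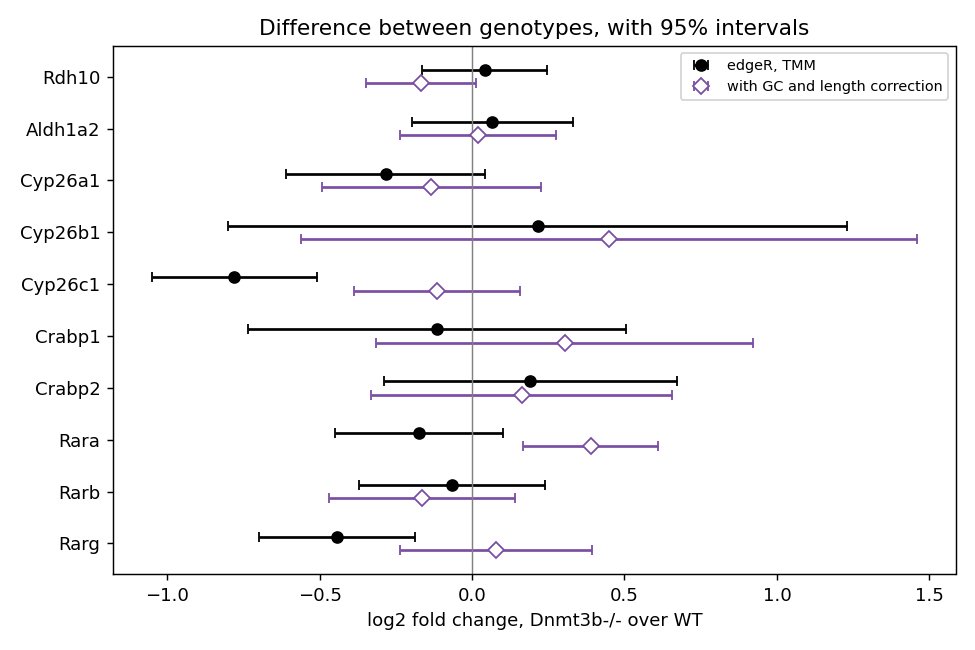
Log2 fold change of Dnmt3b-/- over WT (horizontal axis) for each of the 10 genes, with 95% intervals. Black circles are the edgeR fit with TMM scaling, and open purple diamonds are the fit with the GC and length correction. The intervals of Cyp26c1 and Rarg exclude 0 only in the first fit, and that of Rara only in the second.

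The binding proteins were by far the most abundant members. Crabp1 (chr9:54764748-54773110, plus strand), whose product binds retinoic acid in the cytoplasm, had normalized counts of 11388, 5726 and 14259 in WT and 10114, 9823 and 9030 in Dnmt3b-/- embryos. The WT values spanned all of the Dnmt3b-/- values, and WT embryo 2 was the lowest of all 6 at 44.7% of the mean of the other WT embryos. Over all embryos the log2 fold change was -0.12 ± 0.27 (SE, edgeR adjusted p = 0.771), with a 95% interval of -0.74 to 0.51. Without WT embryo 2 it was -0.41 with an adjusted p of 0.0197 (edgeR), without WT embryo 3 it was 0.17, and with the GC and length correction over all embryos it was 0.30 (adjusted p = 0.438). With the same correction and WT embryo 2 left out, Crabp1 was at 0.01.

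Crabp2 (chr3:87948693-87953372, plus strand) encodes the binding protein that delivers retinoic acid to its nuclear receptors. Its normalized counts were 14412, 9001 and 17855 in WT and 15127, 17053 and 14940 in Dnmt3b-/- embryos. WT embryo 2 was again the lowest, at 55.8% of the mean of the other WT embryos, and the other 5 values overlapped. The log2 fold change was 0.19 ± 0.21 (SE, edgeR adjusted p = 0.514), the 95% interval was -0.29 to 0.67, without WT embryo 2 the value was -0.04, and with the GC and length correction it was 0.16. The ratio of Crabp2 to Crabp1 in FPKM was 1.13, 1.401 and 1.12 in WT and 1.33, 1.55 and 1.47 in Dnmt3b-/- embryos, where WT embryo 2 lay among the Dnmt3b-/- values. This ratio is on the uncorrected scale, where the log2 fold change of Crabp1 (-0.12) was below that of Crabp2 (0.19). With the GC and length correction Crabp1 (0.30) was above Crabp2 (0.16), so the direction of the ratio depended on the correction.

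Of the receptor genes, Rarg alone was past the threshold. Rarg (chr15:102234938-102257522, minus strand), a receptor known from the tailbud and presomitic mesoderm, had normalized counts of 1885, 2195 and 1830 in WT and 1337, 1411 and 1599 in Dnmt3b-/- embryos. The highest Dnmt3b-/- embryo was below the lowest WT embryo. The mean was 1970 ± 197 in WT and 1449 ± 135 in Dnmt3b-/- embryos (SD, n = 3 each), with a log2 fold change of -0.44 ± 0.11 (SE, edgeR adjusted p = 0.0164) and a 95% interval of -0.70 to -0.19. The call was lost when Dnmt3b-/- embryo 1 or 2 was left out (edgeR adjusted p = 0.055 and 0.0633). Rarg had 59.5% GC, and after the GC and length correction its log2 fold change was 0.08 (edgeR adjusted p = 0.707), with overlapping corrected counts of 1572, 1905 and 1522 in WT and 1505, 1731 and 2040 in Dnmt3b-/- embryos.

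Rara (chr11:98927800-98974942, plus strand), the most widely expressed of the receptors, had normalized counts of 1473, 1205 and 1494 in WT and 1352, 1149 and 1199 in Dnmt3b-/- embryos. The groups overlapped, and the log2 fold change was -0.17 ± 0.12 (SE, edgeR adjusted p = 0.295) with a 95% interval of -0.45 to 0.10. With 60.3% GC, Rara stood above the median of -0.66 for the 477 tested genes with 60 to 62% GC. After the GC and length correction it was higher in Dnmt3b-/- embryos, with a log2 fold change of 0.39 ± 0.10 (SE, edgeR adjusted p = 0.0203) and corrected counts of 1189, 1046 and 1225 in WT and 1547, 1447 and 1537 in Dnmt3b-/- embryos. Its direction thus turned with this setting. Gm46294, a gene on the opposite strand, overlaps 4984 bases of Rara.

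Rarb (chr14:16430839-17082331, minus strand), itself a target of retinoic acid and the holder of the promoter repeat shown above, had normalized counts of 1327, 1059 and 1499 in WT and 1200, 1256 and 1258 in Dnmt3b-/- embryos. The Dnmt3b-/- embryos lay inside the range of the WT embryos, and WT embryo 2 was the lowest of all 6. The log2 fold change was -0.07 ± 0.13 (SE, edgeR adjusted p = 0.736) with a 95% interval of -0.37 to 0.24, and -0.16 after the correction. The 3 receptors together amounted to 26.1, 25.3 and 26.9 FPKM in WT and 21.5, 21.3 and 22.7 FPKM in Dnmt3b-/- embryos. Rarg made up 44.5, 53.6 and 42.1% of that sum in WT and 38.5, 41.0 and 43.6% in Dnmt3b-/- embryos, so its share overlapped between the genotypes. The sum and the shares are on the uncorrected scale. With the GC and length correction none of the receptors was past the threshold as lower, with log2 fold changes of 0.39 (Rara), 0.08 (Rarg) and -0.16 (Rarb). The lower sum in Dnmt3b-/- embryos therefore holds for the uncorrected scale only.

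**Figure D4:**
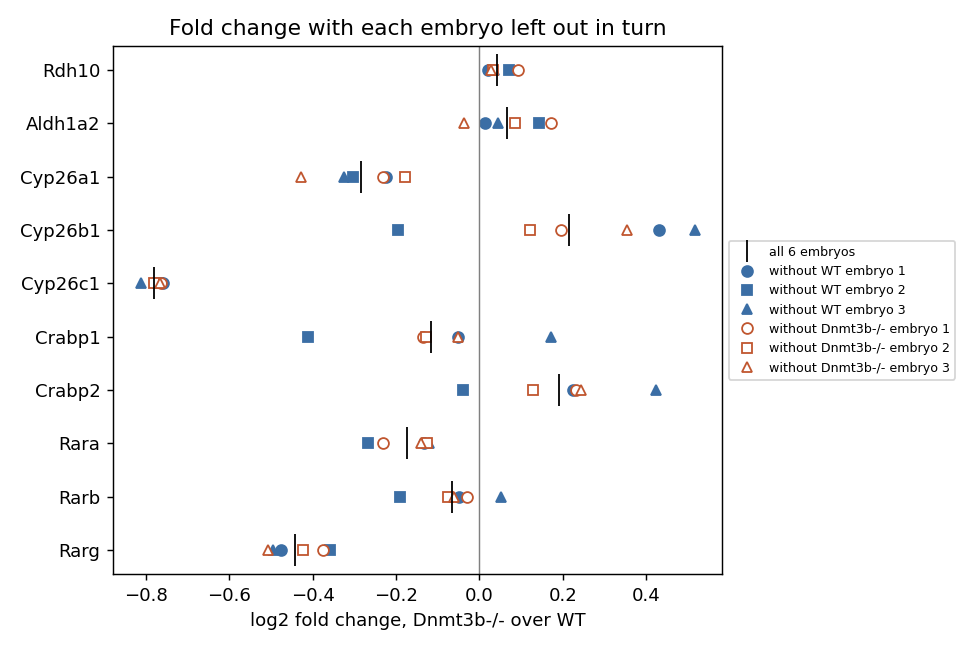
Log2 fold change of Dnmt3b-/- over WT (horizontal axis) for each gene when 1 embryo was left out. Black bars are the fit on all 6 embryos, filled blue symbols leave out a WT embryo, and open orange symbols a Dnmt3b-/- embryo. Cyp26c1 stays between -0.81 and -0.76, whereas Cyp26b1 and Crabp2 change sign without WT embryo 2, Crabp1 and Rarb without WT embryo 3, and Aldh1a2 without Dnmt3b-/- embryo 3.

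The levels of the members per exon length covered a wide range in both genotypes. In WT embryos the order of mean FPKM was Crabp2 (321 ± 104, SD, n = 3), Crabp1 (274 ± 114), Aldh1a2 (43.4 ± 4.0), Cyp26a1 (16.8 ± 1.2), Rdh10 (13.7 ± 0.48), Rarg (12.2 ± 1.2), Cyp26c1 (8.67 ± 0.34), Rarb (7.20 ± 1.2), Rara (6.73 ± 0.78) and Cyp26b1 (1.19 ± 0.69). The ranges of 4 neighbouring pairs overlapped in WT embryos, those of Crabp2 and Crabp1, Rdh10 and Rarg, Cyp26c1 and Rarb, and Rarb and Rara, although Crabp2 was above Crabp1 in 3 of 3 embryos. In Dnmt3b-/- embryos the first 3 places were the same, at 366 ± 27.3, 253 ± 14.7 and 45.4 ± 6.6 FPKM. Cyp26c1 (5.05 ± 0.010 FPKM) was below Rarb (6.88 ± 0.18) and Rara (5.97 ± 0.51) in Dnmt3b-/- embryos, and Cyp26a1 (13.8 ± 2.6) overlapped with Rdh10 (14.1 ± 0.68). Cyp26b1 was the lowest member in both genotypes. These levels are on the uncorrected scale. With the GC and length correction the log2 fold change of Cyp26c1 was -0.11 and that of Rara 0.39.

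**Figure D5:**
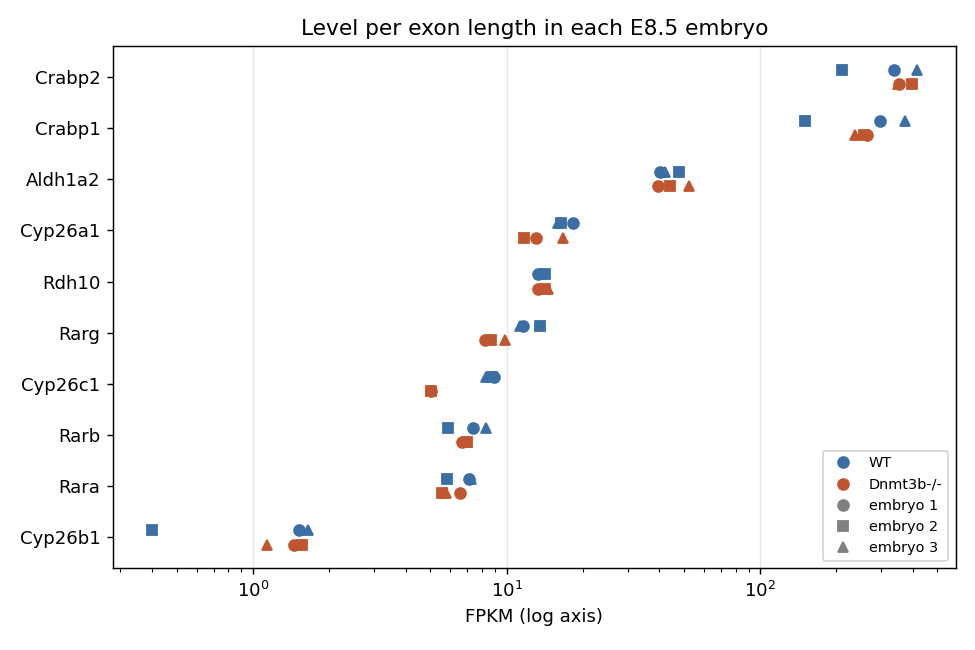
FPKM (horizontal log axis) of the 10 genes in each embryo, ordered by the WT mean, with WT in blue and Dnmt3b-/- in orange and a symbol for each embryo number. Crabp1 and Crabp2 lie between 150 and 416 FPKM, the other genes below 53 FPKM, and Cyp26b1 is lowest with WT embryo 2 at 0.398 FPKM.

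Other genes of the pathway were read from lists of retinoid enzymes, retinol carriers, receptor partners and responsive genes. Of 24 further retinoid enzymes, 15 were tested, 0 were higher and 4 lower in Dnmt3b-/- embryos, with a median log2 fold change of 0.02, beside 18.1% lower and 17.6% higher over all tested genes. Adh5, an alcohol dehydrogenase with broad substrates and the most abundant of them at 112 FPKM in WT, was at -0.37 (edgeR adjusted p = 0.00471). The retinol dehydrogenase family genes Rdh11 and Rdh13 were at -0.66 and -0.57 (adjusted p = 0.00406 and 0.00849), and Dgat1, which can esterify retinol, was at -0.58 (adjusted p = 0.0107). Adh5, Rdh11 and Rdh13 remained lower after the GC and length correction, at -0.54, -0.96 and -0.61, whereas Dgat1 was no longer past the threshold. Of 10 retinol transport genes, 7 were tested and 1 was lower, Fabp5, which can carry retinoic acid and other lipids. Fabp5 was at -0.45 (adjusted p = 0.0148) and at -0.75 with the correction, and was the most abundant of its list at 189 FPKM in WT. Rbp4 and Ttr, the retinol carriers of the circulation, had log2 fold changes of -1.05 and -1.32 that did not pass (adjusted p = 0.235 and 0.136), and of -0.07 and -0.39 without WT embryo 2. Both are also on the yolk sac endoderm list. Of its 9 genes 9 had values below 0, with a median of -1.08 and Amn alone past the threshold, and without WT embryo 2 the median was -0.28 with 8 below 0.

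The partners of the receptors were mostly not past the threshold. Of 16 tested genes 1 was higher and 1 lower, beside 17.6% higher and 18.1% lower over all tested genes. The median log2 fold change of the list was -0.03. Rxrb, which encodes an RXR partner of the RAR proteins, had normalized counts of 1523, 1253 and 1479 in WT and 771, 747 and 549 in Dnmt3b-/- embryos. All Dnmt3b-/- embryos were below all WT embryos, with a log2 fold change of -1.04 ± 0.15 (SE, edgeR adjusted p = 0.00181). It had 61.9% GC and was still lower after the GC and length correction, at -0.43 (adjusted p = 0.0355). Ncor1, a corepressor, was higher at 0.36 (adjusted p = 0.0075) and at 0.27 with the correction (adjusted p = 0.0118). Tbl1x, a component of corepressor complexes, was the most abundant gene of the list at 50.6 FPKM in WT. Rxra and Rxrg had log2 fold changes of -0.21 and -0.86 that did not pass (adjusted p = 0.106 and 0.25). Without WT embryo 2 they were at -0.27 (adjusted p = 0.0469) and -0.20 (adjusted p = 0.793), and with the GC and length correction Rxra was at 0.18 and Rxrg at -0.59. With that correction 4 genes of the list were past the threshold as higher and 2 as lower, beside 11.0% and 15.6% over all genes.

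Among genes known to respond to retinoic acid, 6 of 23 tested were higher and 0 lower in Dnmt3b-/- embryos. The list was not divided by the direction in which its genes respond, so its counts and median do not measure a response. Over all tested genes 17.6% were higher and 18.1% lower. The median log2 fold change of the 23 genes was 0.41, and 0.44 with the GC and length correction. With the correction 3 were past the threshold as higher and 1 as lower, beside 11.0% and 15.6% over all genes. Without WT embryo 2 the same 6 genes were past it as higher, with a median of 0.30 over the list. Stra8, a germ line gene named for its induction by retinoic acid, had at most 3 reads in any WT embryo and normalized counts of 59.5, 105 and 47.1 in Dnmt3b-/- embryos. Against the largest floor of 3 reads in a WT library (3.41 normalized counts) this was at least 20.7-fold higher (edgeR adjusted p = 0.000823). Stra8 is on the list for its response to retinoic acid in germ cells. The paper reports that germline genes made up most of the strongly upregulated genes in Dnmt3b-/- embryos, and links this to reduced promoter methylation. The cause of the rise of Stra8 was not tested here. The members with a matching repeat in a promoter window, Cyp26a1 and Rarb, were not past the threshold, and binding at these repeats was not measured. The other genes were Hoxa5 at 0.87 (adjusted p = 0.0316), Pax6 at 0.85 (0.0288), Hoxb1 at 0.47 (0.0435), Meis2 at 0.46 (0.00741) and Meis1 at 0.44 (0.0267), all transcription factors of trunk and neural patterning. Meis2 was the most abundant gene of the list at 25.6 FPKM in WT. With the correction Stra8, Hoxb1 and Hoxa4 were past the threshold, at 5.37, 0.62 and 1.34, while Hoxa5, Pax6, Meis2 and Meis1 were not (adjusted p = 0.0733, 0.0674, 0.0512 and 0.344).

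Markers of the tissues where the members are expressed were read beside them. Over all tested genes 17.6% were past the threshold as higher and 18.1% as lower. With the GC and length correction these shares were 11.0% and 15.6%. Of 8 tailbud markers 2 were lower, Wnt3a at -1.04 and Evx1 at -1.26, and neither was past the threshold after the GC and length correction, with which Fgf17 was higher at 0.79 (adjusted p = 0.0228). Of 7 hindbrain markers 2 were higher, among them Hoxb1, and of 9 somite markers 1 was higher, Tcf15 at 1.14, joined with the correction by Foxc2 at 0.54 (adjusted p = 0.014). None of the 7 erythroid markers was past the threshold. Without WT embryo 2, Amn was no longer past it, T was past it as higher and Hbb-bh1 as lower. The part of these tissues in the values of Cyp26c1, Cyp26a1 and Rarg was not tested.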

How the data were processed

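Per the labels and the study's methods, the authors aligned the reads to mm10 with TopHat2 2.0.12, counted them in genes with HTSeq 0.6.0 and compared the genotypes with DESeq2 1.4.5. The deposited table holds raw counts for 24065 genes, which were used here. Its columns of normalized counts, fold changes and adjusted p-values were not used. Which RefSeq release was counted, and with which strand option, is not given in the sources used here. After a filter on low counts (a mean of 10 or more) and TMM scaling, edgeR 4.0.16 (R 4.3.3) was used for quasi-likelihood tests, with Benjamini-Hochberg adjustment over 15114 genes, on 3 WT and 3 Dnmt3b-/- embryos without covariates. Normalized counts were scaled to a common effective library size. FPKM was computed from these libraries and RefSeq exon lengths (GRCm38.p6). Of the gene symbols, 22604 matched directly, 1247 through older symbols, and 214 were unmatched. For the GC and length correction, the log count of each gene in a library was taken as its difference from the gene's mean over the libraries. In each library these differences were fitted with splines of GC content and exon length (5 degrees of freedom), and the fits were used as offsets (15047 genes). The correction thus removes differences in these trends between libraries, including any that follow genotype. Intervals are 95%. The fits were tested on simulated data. DESeq2 1.42.0 and limma 3.58.1 were alternatives, beside other filters and scalings, a replicate block and each embryo left out.

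The members, the other gene lists and the named genes (all members, list genes past the threshold up to 6 per list, the most abundant gene of each list, Stra8, and the 3 genes most like the member that changed most) were chosen with earlier results of these data known. Some list genes that this rule would name are not reported here. The labels number the embryos 1 to 3 within each genotype and tie no number to a litter, and p-values measure the spread between embryos. The intervals of fold changes come from the same fits, while floors for low counts cover counting error only.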

Additional observations from a re-analysis of the deposited data

How the results depend on the processing

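Of the 10 members, 2 were past an adjusted p of 0.05, Cyp26c1 and Rarg, both lower. After the GC and length correction neither was past it, and 1 different member, Rara, was past it as higher. The same held for the corrected fit with the replicate block or without WT embryo 2 (chosen after seeing the data). With each embryo left out of the uncorrected fit the count was 1 to 3. No member was past this threshold with a change above 2-fold in any of the 16 alternatives. The median log2 fold change of the members, -0.09, was -0.17 with total counts, -0.047 with limma-voom, -0.036 with the replicate block, 0.049 with the GC and length correction, 0.043 with that correction and the block, -0.03 with the correction and without WT embryo 2, and -0.23 to 0.039 with each embryo left out. Total counts, which moved the median of all genes from -0.03 to -0.11, turned Rdh10 to -0.036 and Aldh1a2 to -0.013. The GC and length correction turned Rdh10 to -0.17, Crabp1 to 0.30, Rara to 0.39 and Rarg to 0.078. With the block added these were -0.17, 0.40, 0.39 and 0.074. With WT embryo 2 left out of the corrected fit they were -0.17, 0.011, 0.33 and 0.19, and Crabp2 was at -0.079. With each embryo left out, Aldh1a2 ranged from -0.037 to 0.17, Cyp26b1 from -0.19 to 0.52, Crabp1 from -0.41 to 0.17, Crabp2 from -0.039 to 0.42, and Rarb from -0.19 to 0.052. Dnmt3b ranged from -1.25 to -0.61 and was not past the threshold without Dnmt3b-/- embryo 1, 2 or 3 (edgeR adjusted p = 0.0608, 0.0613 and 0.0555). The cause of these changes was not tested. In the other lists, leaving out WT embryo 2 kept the 4 retinoid enzymes, Fabp5, Rxrb and Ncor1 past the threshold and added Rxra as lower (an alternative chosen after seeing the data). Embryos with the same replicate number did not deviate together (Pearson r of -0.05, -0.15 and -0.01 across genes), and the block took the genes past the threshold from 5395 to 4411 and changed no call among the members. With 3 embryos per genotype, a 95% interval as wide as that of Cyp26b1 leaves a 2-fold rise undecided.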
